A study of Homo sapiens with 9 samples.

Results

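The species described here are the small RNA alignments of 25 to 29 nt in K562 cells, a chronic myelogenous leukemia line. They were chosen by length alone: every alignment in the deposited K562 table whose end minus start lay from 25 to 29 nt was kept, on all chromosomes and on both strands. This gave 138423 of 3688019 alignments (3.75%), which held 1682376 of 47670688 reads (3.53%). An alignment is a pair of 5′ and 3′ coordinates on 1 strand, and its reads are the deposited count divided by the number of near-identical alignments by which that count had been multiplied. Alignments that touched or overlapped on the same strand were joined into 98134 loci.

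The series holds small RNA-seq of 3 batches of untreated K562 cells, all pooled by the authors into 1 table of alignments. It also holds 6 samples of HEK293 cells, a human embryonic kidney line: cells with sncRNA overexpression vectors and doxycycline (n = 2), cells with those vectors and no doxycycline (n = 2), and cells with control vectors and no doxycycline (n = 2), whose values were not used here. The study asked which small noncoding RNAs (sncRNAs) are present in K562 cells and which of them affect the cells when overexpressed. Because the batches were pooled, no spread between them can be given, no test between samples was possible, and the intervals given are 95% Wilson intervals, which cover counting error only.

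MicroRNAs (miRNAs) are cut from hairpin precursors and loaded into Argonaute proteins, and their copies differ by a few bases at the 3′ end. Box C/D small nucleolar RNAs (snoRNAs) are mostly released from introns, carry box C near the 5′ end and box D near the 3′ end, and guide the methylation of ribosomal RNA, while H/ACA snoRNAs guide the change of uridine to pseudouridine. A transfer RNA (tRNA) is made with a 3′ trailer that RNase Z removes and that ends in the run of U at which RNA polymerase III stops.

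The deposited table gives coordinates and not the bases of the reads, so the sequences shown are those of GRCh37 at the alignments, read 5′ to 3′ on the strand of the RNA, and a read may have differed from them. The first set shows what an extended miRNA looks like. The mature sequences are from RefSeq (GRCh38.p14), in RNA letters with the seed, bases 2 to 8, in capitals. Each is followed by the 25 to 29 nt alignment with most reads at its hairpin, in DNA letters with the bases beyond the mature 3′ end in capitals.
hsa-miR-182-5p: uUUGGCAAugguagaacucacacu
MIR182 25 nt: tttggcaatggtagaactcacactG
hsa-miR-146b-5p: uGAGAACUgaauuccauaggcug
MIR146B 25 nt: tgagaactgaattccataggctgTG
hsa-miR-92a-3p: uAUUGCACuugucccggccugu
MIR92A1 25 nt: tattgcacttgtcccggcctgtTGA
MIR92A2 25 nt: tattgcacttgtcccggcctgtGGA
hsa-miR-223-5p: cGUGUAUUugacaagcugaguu
MIR223 29 nt: cgtgtatttgacaagctgagttGGACACT

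The second set shows 3 further kinds of species that held many of the reads. In tRNA trailers the capitals mark the terminal run of T. In the annotated snoRNAs SNORD78 and SNORD21, and in loci outside any annotated small RNA gene, they mark TGATGA, the form of box C searched for, and CTGA, box D.
tRNA-Ser-GCT trailer: gctaaggaagtcctgtgctcagTTTT
tRNA-Thr-AGT trailer: aaccgagcgtccaagctctttccaTTTT
SNORD78 3′ end: tgagcatgtagacaaaggtaacaCTGAag
SNORD21 5′ end: ctgaaTGATGAtatcccactaaCTGAgc
GAS5: cctggaTGATGAtaagcaaatgCTGAct
MTIF2 intron: tgaaaTGATGAtctgtgttCTGAtt
ANKFY1 intron: ctaagTGATGAtgtataactCTGAtg
POLR2H intron: ataaaTGATGAtcagcagaatCTGAgt
TNIP1 intron: gaaggTGATGAtctttgtgacctCTGAtg

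The reads were concentrated at the short end. Alignments of 25 nt held 815985 reads (48.5%, interval 48.4 to 48.6%), those of 26 nt 330058 (19.6%), those of 27 nt 189055 (11.2%), those of 28 nt 197691 (11.8%) and those of 29 nt 149587 (8.89%). The distinct alignments were spread more evenly, at 42900 of 25 nt and 14108 of 29 nt. The reads of 25 nt were mostly miRNA (58.3%). At 28 nt, by contrast, miRNA held 2.12%, annotated snoRNAs 22.2% and box C/D-like loci outside annotated small RNA genes 31.2%.

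**Figure D1:**
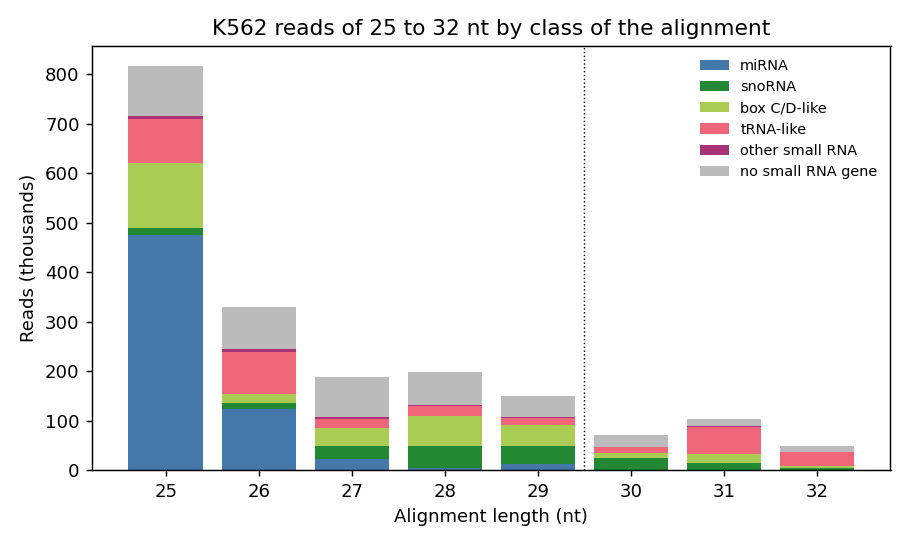
Reads (y axis, in units of 1000) by alignment length from 25 to 32 nt (x axis), stacked by the class of the alignment; the dotted line marks the upper bound of 29 nt. The bar of 25 nt holds 815985 reads, 58.3% of them in miRNA hairpins, and the bar of 28 nt holds 197691 reads, 2.12% of them in miRNA hairpins.

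Most loci were rare. Of the 98134 loci, 74011 (75.4%) had 1 read and 87371 (89.0%) had 1 alignment. The 2218 loci of at least 10 reads (2.26%) held 92.0% of the reads, and the 142 loci of at least 1000 reads held 81.0%. The 10 loci with most reads held 46.2% of the reads of 25 to 29 nt, against 62.0% for the 10 highest loci of 20 to 24 nt and 52.4% for those of 30 to 42 nt.

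The locus with most reads was MIR182, with 179935 reads (10.7%). It was followed by the trailer of a tRNA-Ser-GCT on chromosome 17 with 133931 reads, which GENCODE also annotates as the hairpin MIR4521, and by a locus in an intron of NSMAF on chromosome 8 with 111690. NSMAF encodes an adaptor protein of neutral sphingomyelinase signaling. These 3 loci were each from a different class. The next were MIR146B (76167), MIR92A1 (62035), a locus within GAS5 (61734), MIR92A2 (60166), SNORD78 (39935), MIR20A (25998) and MIR17 (25317). The 15 loci with most reads were completed by MIR425 (23203), the trailer of a tRNA-Thr-AGT on chromosome 19 (20247), a locus within SNHG1 (18746), another within GAS5 (16984) and MIR223 (16082). GAS5 and SNHG1 are long noncoding host genes whose introns carry snoRNAs.

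By class, annotated small RNA genes and tRNA-like folds held 1391 loci (1.42%) but 60.3% of the reads (interval 60.2 to 60.3%). The hairpins of miRNAs accounted for 730 loci and 638452 reads (37.9%). tRNA-like folds and their flanks accounted for 216 loci and 225606 reads (13.4%), snoRNAs and small Cajal body RNAs (scaRNAs) for 401 loci and 130959 reads (7.78%), 5.8S rRNA copies and other rRNA for 12 loci and 11878 reads (0.706%), and vault RNAs, RMRP and similar RNAs for 11 loci and 6774 reads (0.403%). Among the remaining loci, 1511 carried both boxes of a box C/D snoRNA in place, and their alignments with both boxes held 292402 reads (17.4%). The last 95232 loci had none of these, and the alignments with none of these held 376065 reads (22.4%). In the 20 to 24 nt species miRNA hairpins held 83.6% of the reads and snoRNAs 0.319%. The share of miRNA was thus lower and that of snoRNA higher at 25 to 29 nt. Both went further in the same direction at 30 to 42 nt, with 0.610% for miRNA and 19.1% for snoRNAs.

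Reads that stood under 2 labels were few in loci and many in reads. A tRNA-like fold was given precedence, and 3 loci with 154182 reads were both tRNA-like and annotated as miRNA hairpins, among them the tRNA-Ser-GCT and tRNA-Thr-AGT trailers. Counted as miRNA they would bring that class to 47.1% of the reads. The overlap of miRNA with snoRNA held 9 loci and 51 reads.

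Nearly all reads in miRNA hairpins began at or near the 5′ end of the mature miRNA and ended beyond its 3′ end. Such reads are called 3′-extended here. Of 638452 reads, 634145 (99.3%) began within 2 nt of the 5′ end of the mature sequence, or of the main 20 to 24 nt alignment where RefSeq gave no mature sequence, and ended beyond its 3′ end. Of the 730 loci, 592 were of this kind, 47 were extended at the 5′ end and 18 at both ends. The 5′ end was identical in 95.9% of the extended reads. The extension was 1 nt in 28.3% of them, 2 nt in 34.1%, 3 nt in 28.4%, 4 nt in 5.58% and 7 nt in 1.77%. These shares depend on the mature length and on the lower bound of 25 nt, and so does the 99.3%. A read that began at the 5′ end of a reference of 24 nt or less had to end beyond its 3′ end. The 99.3% thus shows mainly where the reads began, and not how often miRNAs were extended. Reads that began 1 or 2 nt before the mature 5′ end (8221 and 409) were counted among the 634145. From the same 5′ end, a 25 nt read ends 1 nt beyond miR-182-5p (24 nt). It ends 2 nt beyond miR-146b-5p (23 nt) and 3 nt beyond miR-92a-3p (22 nt). Shorter extensions of the latter 2 could not be seen.

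The hairpin with most extended reads was MIR182, whose mature miR-182-5p is itself 24 nt long: it had 304419 reads at 24 nt, 108821 at 25 nt, 62524 at 26 nt and 6803 at 27 nt. Its extended forms made up 34.1% of the reads of 20 to 29 nt with that 5′ end, within 2 nt. MIR146B had 895273 reads at 24 nt and 61750 at 25 nt, and 5.86% were extended forms of 25 to 29 nt. Its mature sequence is 23 nt long, so its 24 nt reads also ended beyond the mature end. In both ladders each base beyond 24 nt went with fewer reads. The 25 nt alignment of MIR182 (chr7:129410286-129410310, minus strand) had a deposited RPKM of 1688373 and that of MIR146B (chr10:104196277-104196301, plus strand) 912438.

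MIR92A1 and MIR92A2 yield the same mature miR-92a-3p, and their 22 nt reads cannot be told apart (829167 reads at MIR92A1 and 838768 at MIR92A2). Their 25 nt forms differ within the last 3 bases, as shown above, and each had 1 exact match in GRCh37 (chr13:92003615-92003639, plus strand, and chrX:133303571-133303595, minus strand). There were 57085 reads of 25 nt at MIR92A1 and 52170 at MIR92A2. In the reference, the extension thus differs between the hairpins where the mature sequence does not. The bases of the reads are not given, so a read with a mismatch may stand at the wrong copy.

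MIR223, known as a hairpin of myeloid cells, had a different ladder. Its miR-223-5p arm had 2649 reads at 22 nt, 5932 at 23 nt, 3234 at 24 nt, 1570 at 25 nt, 1192 at 26 nt, 1727 at 27 nt, 351 at 28 nt and 10733 at 29 nt. Reads of this arm were thus most numerous at 29 nt, 7 bases beyond the mature end, with a lower peak at 23 nt. Extended forms of 25 to 29 nt made up 54.2% of the 20 to 29 nt reads of this arm. The 29 nt alignment lies at chrX:65238737-65238765 on the plus strand.

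MIR425 had 5960 reads at 24 nt, 22709 at 25 nt and 201 at 26 nt, so that 25 nt was its main length. MIR21, among the most abundant miRNAs of many tumors, had 5296060 reads of 20 to 24 nt and 7923 extended reads of 25 to 29 nt, or 0.149%. RefSeq gives miR-21-5p as 22 nt. Its 5′ end had 371183 reads at 22 nt, 4106172 at 23 nt and 786227 at 24 nt. Most of its reads below 25 nt thus also ended beyond the mature end. The other hairpins among the 10 with most extended reads were MIR20A (25535), MIR17 (25311), MIR30D (14253) and MIR224 (13633). MIR224 differs from the rest because RefSeq gives its mature sequence as 25 nt, and its main alignment of that length was shifted by 1 base, with 12930 reads. MIR17 and MIR20A share the seed AAAGUGC.

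Over the 184 RefSeq mature sequences with at least 1000 reads of 20 to 29 nt, the median share of extended reads was 0.753% (quartiles 0.209 and 2.33%). It was above 10% in 16 of them. After miR-223-5p the highest were miR-222-3p (45.9%), miR-454-3p (39.8%), miR-671-5p (37.9%) and miR-182-5p (34.1%). Hairpins with no RefSeq mature sequence for the arm were left out of this order, and measured from their main 20 to 24 nt alignment MIR221 (68.0%) and MIR425 (63.8%) lay above miR-223-5p. These mature forms ranged widely in abundance, with 1584 reads of 20 to 24 nt for miR-671-5p and 347231 for miR-182-5p.

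**Figure D2:**
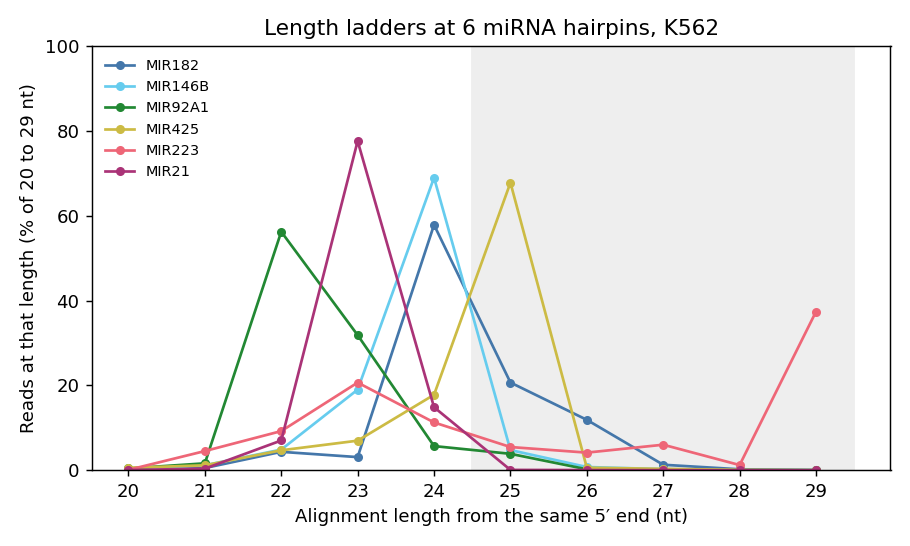
Share of the 20 to 29 nt reads at each length (y axis, %) by length from the same 5′ end (x axis, nt) for 6 hairpins; the grey band marks 25 to 29 nt. MIR21 has its peak at 23 nt, MIR425 at 25 nt with 22709 reads, and MIR223 a high point at 29 nt with 10733 reads.

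Nearly all reads of tRNA-like folds were in trailers. The methods of the study state that reads mapping to more than 1 place were removed, which bears on mature tRNAs, many of which have identical copies. Yet identical sequences at several places remain among the alignments, such as a tRNA-Glu-CTC trailer with 4 exact matches. How far the removal went is not known, so the share of pieces of mature tRNA cannot be read from these values. Of 225606 reads, 224606 (99.6%) began at, within 3 nt of, or after the end of the fold, and 92.5% of the trailer reads ended in TTT. Over all classes, 92.2% of tRNA-like reads ended in TTT, against 2.39% of miRNA reads, 0.488% of snoRNA reads and 4.53% of the reads outside small RNA genes. Trailers were seen at 167 folds. Reads in the body of a fold numbered 470 at its 5′ end, 70 inside and 146 at its 3′ end.

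Serine tRNAs held 62.8% of the tRNA-like reads, threonine 11.8%, arginine 7.49% and isoleucine 4.93%. The tRNA-Ser-GCT trailer (chr17:8090266-8090291, plus strand) began with the first base after the fold. It had 1524 reads at 24 nt, 61124 at 25 nt, 70573 at 26 nt and 1691 at 27 nt, so that 2 lengths 1 base apart within the run of T held nearly all of them. The tRNA-Thr-AGT trailer (chr19:33668038-33668065, plus strand) had 1173 reads at 26 nt, 6894 at 27 nt, 10108 at 28 nt and 1750 at 29 nt. The trailers of tRNA-Ile-AAT (10712 reads), tRNA-Cys-GCA (9575) and tRNA-Ser-CGA (7586) followed.

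Not every trailer in this length range had its main product there. The tRNA-Arg-CCT trailer on chromosome 17 had 2520 reads at 27 nt but 52131 at 31 nt, so its 6846 reads of 25 to 29 nt were the shorter minority of a longer species. Of 84 tRNA-like loci of at least 10 reads, 27 had their main length at 25 to 29 nt, 27 at 20 to 24 nt, 21 below 20 nt and 9 above 29 nt. An intergenic locus on chromosome 6 with 12245 reads also ended in a run of T. It had 1910, 5328, 3614 and 1296 reads at 26, 27, 28 and 29 nt from 1 shared 5′ end, and no cloverleaf was found before it.

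Box C/D snoRNAs gave 122522 reads. Of 960 annotated genes, 138 had at least 1 such alignment, 108 at least 10 reads and 21 at least 1000. The reads were longer than those of miRNA: 28 nt held 34.98%, 29 nt 26.2% and 25 nt 9.87%. Of all reads of 20 to 42 nt in these genes, 46.9% were of 25 to 29 nt.

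The pieces came from the ends of the snoRNA. Alignments whose 3′ end lay within 5 nt of the end of the gene held 52.6% of the reads and those whose 5′ end lay within 5 nt of its start 36.5%. By genes the ends were alike, with such alignments in 93 genes at the 3′ end and 92 at the 5′ end. SNORD78 alone held 39935 of the 122522 reads, and 1 of its alignments 18182 of the 32080 reads of 29 nt. SNORD78 had 18182 reads at 29 nt, with 997 and 492 reads 1 base shorter and 1 base longer from the same 5′ end. That piece (chr1:173834762-173834790, minus strand) starts 34 nt into the gene and ends with box D and 2 further bases. SNORD1B (10876 reads) and SNORD104 (6506) also had their main piece at the 3′ end. SNORD93 (7819) had its main piece at the 5′ end, with 4668 reads at 27 nt. SNORD21, in an intron of the ribosomal protein gene RPL5, gave 3477 reads at 28 nt from the 5′ end.

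H/ACA snoRNAs gave 3431 reads, of which 84.5% came from the 5′ end. SNORA74A in MATR3 had the most (678), and a copy of SNORA63 in EIF4A2 (413) and SNORA50 in CNOT1 (240) followed. The scaRNAs, which guide changes in small nuclear RNAs, gave 851 reads, led by SCARNA6 with 274 and SCARNA4 with 239. The 119 annotated genes of the imprinted families SNORD113 to SNORD116 had 2 reads in all.

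Outside the small RNA genes of the annotation used, 1646 loci had at least 10 reads. Of these, 277 (16.8%, interval 15.1 to 18.7%) carried TGATGA within the first 15 nt and CTGA within the last 10 nt after it. On the opposite strand of the same loci the pair was found in 0. Among the 73658 such loci of 1 read it was found in 599 (0.813%), and on their opposite strand in 4. The pair is a description of the letters and does not show that these RNAs are snoRNAs. The annotation is not complete on GRCh37: within GAS5, GENCODE lists 1 snoRNA gene there and RefSeq lists 11 on GRCh38, so part of these loci are known snoRNAs.

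The place of the boxes was narrower than the windows asked for. In 244 of the 277 loci the main alignment ended exactly 2 bases after CTGA. In 163 loci 5 bases preceded TGATGA, 6 bases did in 71, 3 bases in 16 and 2 bases in 25. The stretch from the first base of TGATGA to the last base of CTGA was 14 to 25 nt long, with a median of 19 nt. A box C that allowed any sixth base (TGATG) brought the count to 429, with 0 on the opposite strand.

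Of the 277 loci, 213 lay in introns of mRNAs, and 267 had 1 exact match in GRCh37. The loci in genes were spread over 239 protein-coding hosts, of which 4 held more than 1 locus and none more than 2. The main length was 25 to 29 nt in 233 of them (84.1%), whereas this held for 15 of 266 miRNA loci (5.64%) and 43 of 129 box C/D snoRNA loci (33.3%). In the median locus 93.8% of all overlapping reads were of 25 to 29 nt. At these loci 25 to 29 nt was thus mostly the main length. The class was defined by both boxes in the main alignment of 25 to 29 nt, so a locus lacking a box there could not enter. The miRNA and snoRNA loci had passed no such filter, so their shares are not a like comparison.

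The NSMAF locus had 111690 reads, of which 111154 were of 1 alignment of 25 nt with 5 bases before box C and 2 bases after box D. It held 37.6% of the 296764 reads of the loci with both boxes. The other leading loci were in GAS5 (61734, 16984 and 14240 reads), on chromosome 12 outside genes (13855), in NOP56 (8273), which encodes a core protein of box C/D particles, in MTIF2 (6005), the mitochondrial translation initiation factor, and in SCARNA9 (4177). ANKFY1 had 3644 reads, EIF2AK3 3273, POLR2H, a subunit shared by the nuclear RNA polymerases, 2931, TNIP1 2714 and CCAR1 2593. In MTIF2, 5240 of 6005 reads were of the 25 nt alignment shown above (chr2:55479919-55479943, minus strand), and 99.5% of all overlapping reads were of 25 to 29 nt. The GAS5 sequence shown lies at chr1:173835139-173835166 on the minus strand and had 27863 reads. The ANKFY1 sequence lies at chr17:4089561-4089586 on the minus strand (3094 reads), that of POLR2H at chr3:184083103-184083129 on the plus strand (2759 reads) and that of TNIP1 at chr5:150434595-150434623 on the minus strand (2690 reads).

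Among the 200 such loci with most reads, 188 lay within a gene, in 184 hosts. RefSeq held 179 of these hosts on GRCh38, and 16 of them contained an annotated snoRNA or scaRNA gene. These 16 hosts held 19 loci and 110877 reads, and the hosts without one, NSMAF and MTIF2 among them, held 164 loci and 165992 reads.

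Of all reads outside small RNA genes, 43.7% carried both boxes at 25 to 29 nt, against 4.88% at 20 to 24 nt and 31.0% at 30 to 42 nt. At 25 to 29 nt, 1 alignment in NSMAF held 111154 of the 292402 reads with both boxes. The share without it was not computed, so the order of 25 to 29 nt and 30 to 42 nt may rest on that locus. The share of loci of at least 10 reads was 16.8% at 25 to 29 nt, 2.79% at 20 to 24 nt and 17.7% at 30 to 42 nt.

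Some sequences could not be placed. The GAS5 locus with 16984 reads and the locus on chromosome 12 share the same 28 nt sequence, with 9249 reads at GAS5 and 8243 at chromosome 12. SCARNA9 on chromosome 11 and snoU2_19 in EIF1AX on the X chromosome share another of 29 nt, with 3919 and 3798 reads. Near-equal numbers at identical sites cannot be read as separate expression. Of all 25 to 29 nt alignments, 78.6% had 1 exact match on the assembled chromosomes, and these held 93.6% of the reads.

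Length steps, meaning alignments that share 1 end and differ by 1 nt, followed the class. Of 123266 distinct 5′ ends, 6809 (5.52%) had 2 lengths 1 nt apart, and these ends held 90.2% of the reads. Of 124278 distinct 3′ ends, 7022 (5.65%) did, with 72.4% of the reads. Among alignments of at least 10 reads, more of the 1 nt neighbours' reads lay at 3′ steps in 83.8% of the 598 miRNA alignments, 66.2% of the 260 tRNA-like alignments and 52.4% of the 722 snoRNA alignments. In the 456 box C/D-like alignments they lay at 3′ steps in 28.9% and at 5′ steps in 65.1%. By this measure of reads, steps were more often larger at the 5′ end than at the end next to box D. The presence of neighbours differed less. A 3′ neighbour 1 nt shorter existed for 58.3% of these alignments and 1 nt longer for 51.1%. At the 5′ end these shares were 51.8 and 61.4%.

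The relation to shorter species followed the class too. A 20 to 24 nt alignment with the same 5′ end and more reads existed for 93.3% of the miRNA reads, 10.3% of the tRNA-like reads, 9.60% of the snoRNA reads and 2.14% of the box C/D-like reads. For miRNA, 58.3% of the reads had such an alignment with at least 10 times as many reads.

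By gene element, 33.5% of the loci lay in introns of mRNAs, 14.1% in coding sequence (CDS), 9.54% in 3′ UTRs, 6.52% in 5′ UTRs, 3.44% in exons of long noncoding RNAs (lncRNAs) and 16.1% between genes. The share of bases in each element, with small RNA loci left out, was divided by the share of the stranded genome that it covers. This ratio of shares is called an odds ratio here, as in the study. It was 32.7 for 5′ UTRs, 24.0 for CDS, 13.2 for 3′ UTRs, 5.11 for exons of lncRNAs and 1.60 for introns of mRNAs. A locus could be placed in an exon by 1 base, as at RPL34 below. In the 20 to 24 nt species the odds ratios were 20.9 for 5′ UTRs and 14.7 for CDS. In the 30 to 42 nt species they were 35.2 for 5′ UTRs and 22.0 for CDS. The exonic loci of 25 to 29 nt were mostly rare. Over loci of at least 10 reads the odds ratios at 25 to 29 nt were 19.2 for 5′ UTRs, 8.80 for CDS and 3.49 for 3′ UTRs. Weighted by reads, CDS held 2.11% of the reads and introns of mRNAs 25.9%.

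Exonic reads were also counted by gene list. At least 10 reads of 25 to 29 nt in exons were found for 66 of 88 ribosomal protein genes (75%), 34 of 87 histone genes (39.1%) and 26 of 71 genes named as translation factors (36.6%), against 6.47% of 20136 protein-coding genes. The reads per gene were few, with medians of 16, 6 and 6. Some of the high values were other species: the 4123 reads of RPL3 include those of SNORD43, and the 3275 reads of EIF2AK3, a stress kinase that the symbol rule took in, were nearly all those of the locus with both boxes.

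Of the 8 highest loci in CDS, 5 ended within 1 nt of the end of an intron, as did 1 of the 8 highest in 5′ UTRs. The CDS locus with most reads, in the ribosomal protein gene RPL34, had 4740 reads, and its main alignment of 25 nt (2400 reads) lay in the last bases of an intron and ended on the first base of the next exon. HNRNPH1 (455 reads), RPL35 (150), TRAPPC14 (102) and ACADVL (86), and the 5′ UTR locus at CSNK2B (189), had the same layout. Of these, 3 are shown, with an intron end of TMEM183A beside them and the last 2 bases of the intron in capitals.
RPL34: cctactgactgtttcactttctAGg
HNRNPH1: tgtattaacggttgttttctttccAGa
RPL35: ttcactgacatctctgttttgtAGc
TMEM183A: ttggattaattctcagttctcttcAG

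Outside small RNA genes, 2694 of 130684 alignments (2.06%) ended within 1 nt of an annotated intron end, against 0.952% at 20 to 24 nt and 1.37% at 30 to 42 nt. There were 898 alignments per position within 1 nt and 59.9 per position from 25 to 11 nt before the intron end. The last intron base was the 3′ end of 1679 alignments with 3901 reads, and the first exon base of 733 with 5931. At the other end of the intron, 826 alignments with 1050 reads began within 1 nt of the first intron base.

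There were 68 such loci of at least 10 reads, in 65 genes. Of these, 36 (52.9%, interval 41.2 to 64.3%) held CTNAC or CTNAT on the strand of the RNA, letters that resemble the branch point of human introns, against 438 of 1578 other loci outside small RNA genes (27.8%, interval 25.6 to 30.02%). Those other loci include the 277 with both boxes, whose CTGA can be part of the letters searched. Without them the letters were in 293 of 1301 (22.5%, interval 20.3 to 24.9%). The other loci were not matched for base composition or for place in an intron. Whether the letters mark branch points was not tested. TMEM183A (chr1:202989895-202989920, plus strand) had 639 reads at its locus, and its main alignment ended on the last base of the intron. The RPL34 alignment lies at chr4:109543237-109543261 on the plus strand, that of HNRNPH1 at chr5:179048398-179048424 and that of RPL35 at chr9:127622543-127622567, both on the minus strand.

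Among the smaller classes, copies of 5.8S rRNA (RNA5-8SP6 on the Y chromosome) had 8525 and 3203 reads. The vault RNAs VTRNA1-2 and VTRNA2-1 had 2771 and 1947, and RMRP, the RNA of RNase MRP, had 849. In none of these loci did 25 to 29 nt exceed 26.2% of the overlapping reads.

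Other leading loci outside the small RNA genes of the annotation used included loci within the snoRNA host SNHG1 (18746, 8093 and 7466 reads), GCDH (7708), a mitochondrial dehydrogenase gene, DOLPP1 (5567) and AFDN (4243), each in an intron or a noncoding exon. The main alignments of GCDH, DOLPP1, AFDN and the SNHG1 locus of 18746 reads hold the shorter box C, TGATG, and CTGA. Those of the other SNHG1 loci named lack TGATG. Within SNHG1, RefSeq lists 9 snoRNA genes on GRCh38 and GENCODE 0 on GRCh37. In GCDH, DOLPP1 and AFDN 97.8, 98.0 and 99.1% of the overlapping reads were of 25 to 29 nt. In OSBPL10, by contrast, the 2019 reads were 0.761% of the 265371 overlapping reads, whose main length was 22 nt. Its main alignment starts with the first 20 bases of the mature miR-378a-3p, whose hairpin MIR378A had 267574 reads of 20 to 24 nt. In all, 93 loci outside annotated small RNA genes started in this way with the first 20 bases of a RefSeq mature miRNA, and they held 3521 reads.

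Part of the loci between genes matched the mitochondrial genome. Exact matches to it were found for 9325 alignments (6.74%) with 35283 reads (2.10%), and 13915 alignments (10.1%) with 71767 reads (4.27%) matched it with at most 1 mismatch. The intergenic loci on chromosome 11 (8519 reads) and chromosome 5 (6493), the intron of PCBD2 (4354) and the highest 3′ UTR locus, at MTRNR2L1 (648), were all within 1 mismatch of it. Their nuclear or mitochondrial origin cannot be told apart in this table.

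The first base was T in 26.3% of the alignments and in 52.2% of the reads, and in 36.3% of the reads without the 10 highest loci. It was T in 78.1% of the miRNA reads and in 53.8% of the box C/D-like reads, and G in 68.6% of the tRNA-like reads. Base 10 was G in 75.9% of the box C/D-like reads, a position within the box C. PIWI proteins bind piRNAs of a similar length in the germ line. Reads of 25 to 29 nt in exons of PIWIL1 and DDX4 numbered 1 each, with 0 in PIWIL2, PIWIL3, PIWIL4 and MAEL.

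Of the sncRNAs that the study tested by overexpression, 74 were of 25 to 29 nt, and that list was chosen by the authors mostly from these same libraries, with others added from a separate data set. An alignment at the exact coordinates was found for 70 of the 74, with 1 to 2818 reads (median 17) and a median deposited RPKM of 33.5. The highest was the EIF2AK3 locus, at a deposited RPKM of 22902 and 2818 reads, followed by loci in ABCA2 (1609 reads) and MRPS16 (1250). They were 51 in introns, 13 in CDS, 5 in 3′ UTRs and 1 in a 5′ UTR. Both boxes were in place in 35 of the 70.

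The labelled cell line was checked against marker genes, of which small RNA reads are fragments and not a measure of the mRNA. At 25 to 29 nt the erythroid genes HBG1, HBG2, HBE1 and TFRC had 51, 68, 46 and 57 reads in exons, and GATA1 had 4. HBZ, ALAS2 and EPOR had 2 each. The hepatocyte, B cell, T cell and neuron markers were all at 0. Among reads of 18 nt or longer, the neuron gene SNAP25 had 17, as many as HBZ and more than ALAS2 (10) and EPOR (12). In those reads HBG1 had 269, HBG2 307, HBE1 273 and TFRC 317. Recovered reads were whole numbers for all 43242 alignments of 25 to 29 nt with a near neighbour.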

How the data were processed

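Small RNA of 3 K562 batches was sequenced after selection of 20 to 40 nt inserts. Per the labels and the methods of the study, reads were aligned to GRCh37 with Bowtie2 2.2.9, only reads with a single place in the genome were kept, and the batches were combined, although the table holds alignments with identical sequence at several places. For each alignment the authors deposited a read count and an RPKM (reads scaled by alignment length and library size). The deposited counts were found to be the reads multiplied by the number of alignments of the same strand whose ends together shifted by at most 3 nt, itself included, so they were divided by that number; the RPKM are printed only as deposited. Loci, exact genome matches and classes were computed in Python 3.11.15 with numpy 2.4.6, pandas 2.3.3 and numba 0.67.0, with figures from matplotlib 3.10.9. On simulated data, neighbour numbers, reads, merged loci (against bedtools 2.31.1) and exact matches were recovered in 100% of cases. Annotation was GENCODE release 44 lifted to GRCh37, RefSeq miRNAs placed by sequence (1552 of 1560 hairpins), and a search for tRNA cloverleafs (505 folds). A tRNA-like fold took precedence over miRNA, then snoRNA, snRNA, rRNA and other small RNAs. Small RNA classes required the same strand, and tRNA flanks reached 20 nt before and 35 nt after the fold.

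Members were set by length alone, but the members and lists were chosen with earlier results of these data known, and the box C/D-like class and the intron-end, mitochondrial and mature-start checks were added after the data were seen. Named were the 15 loci with most reads, the 5 highest of each class or element (where the values help), and the 10 hairpins with most extended reads; the loci in the paragraphs on box C/D-like species, intron ends, mitochondrial matches and lengths of MIR21 and MIR425 include others chosen after their values were seen. No test was run and no comparison between samples was made, since the 3 batches are in 1 table; 0 columns of values were left without a sample. Alternatives covered read number, read minimum, merging, strand, pairing of the folds, order of elements and genome matches.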

Additional observations from a re-analysis of the deposited data

How the results depend on the processing

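No paired analysis was possible because the 3 batches are pooled in 1 table, and no replicate could be left out. The share of reads at 25 nt, 48.5%, was 51.3% with deposited reads, 49.7% and 50.7% with at least 2 and 10 reads per alignment, and 49.995% with 1 exact match. The 10 highest loci held 46.2% of the reads, 54.5% with deposited reads, 43.6% with each 5′ end as a locus and 41.7% at 26 to 28 nt. Small RNA genes held 60.3% of the reads, 60.4% on either strand and 65.8% with deposited reads; they were 1.42% of the loci and 25.8% of those of at least 10 reads. The miRNA share moved to 47.1% where hairpins came before tRNA-like folds. CDS held 14.1% of loci, 16.6% when placed before UTRs, 5.86% at 10 reads and 2.11% by reads; introns of mRNAs held 33.5%, 41.3% at 10 reads and 25.9% by reads. Extended miRNA reads were 99.3%, 95.3% with the same 5′ end and 99.4% in alignments of at least 2 reads. Reads at stepped 5′ ends were 90.2%, 94.6% and 94.5% at 2 and 10 reads, and 72.4% at 3′ ends. T at base 1 was 26.3% of alignments, 52.2% of reads and 36.3% of reads without the 10 highest loci. The assayed species had a median RPKM of 33.5, or 28.7 within 3 nt. Chosen after seeing the data, a shorter box C gave 429 in place of 277 loci, narrower windows 255, and looser folds 220 in place of 216 tRNA-like loci. The cause of these moves was not tested. Loci of 1 read (75.4%) cannot be ranked, and reads with mismatches, which the table does not mark, may stand at the wrong copy of a repeated sequence.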
